A study of Mus musculus musculus x M. m. domesticus and Mus musculus domesticus and Mus musculus with 12 samples.

Results

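The 215 genes described here lie on mouse chromosomes 1, 2 and 3 and have mitotic germ cells as their cell type in the study's table of all genes. That cell type is the testis cell population with the highest induction of the gene in separate arrays of enriched cell populations, so it does not rest on the 12 arrays analysed here and does not mean that a gene is confined to those cells. The rule found 218 genes, and 3 of them were left out because they are on the study's short list of genes whose change in sterile males it held to be robust to cell composition, which for mitotic genes means lower in MxD. The study's wider set of sterility-correlated genes was not used, so members may belong to it. The members are 62 genes of chromosome 1, 90 of chromosome 2 and 63 of chromosome 3, out of 7000 genes with deposited values. All 215 had a value in every male. The study kept only genes detected on all 12 arrays, and the deposited genes slightly outnumber those it reports. The files used here pair no symbol with a member, so members are called by their Ensembl identifiers.

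Mitotic germ cells are the spermatogonia, which lie at the base of the seminiferous tubule. They divide to renew the stem cell pool and to supply cells that enter meiosis as spermatocytes. Spermatocytes give rise to haploid spermatids, which make up the postmeiotic stage, while Sertoli cells nurse all stages and, with Leydig and peritubular cells, form the somatic part of the testis. A whole testis holds all of these cells at once, and its RNA is the sum over them.

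The study asked how testis expression differs between 2 house mouse species and between sterile and fertile F1 males. Males of 4 genotypes were measured, with 3 males each and 1 Affymetrix array per male, and the maternal strain is written first. DxD, an F1 within *M. domesticus*, had a LEWES/EiJ mother and a WSB/EiJ father. MxM, an F1 within *M. musculus*, had a PWK/PhJ mother and a CZECHII/EiJ father. The fertile hybrid DxM had a LEWES/EiJ mother and a PWK/PhJ father, and the sterile hybrid MxD had a PWK/PhJ mother and a LEWES/EiJ father. All males were aged 60 days and none carried an engineered allele. DxM and MxD males carry the same LEWES/EiJ and PWK/PhJ copies of chromosomes 1 to 3. They differ in the species of the X and Y chromosomes, in the mitochondria and in which parent gave each autosome. WSB/EiJ and CZECHII/EiJ are absent from both hybrids, so neither within-species genotype is a parent of a hybrid. Each genotype is 1 pair of strains, so differences between genotypes include differences particular to those strains. The labels give replicate numbers, and the study's text states that these are separate males, so the p-values measure the spread between males.

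Values are log2 expression levels that the authors had quantile normalized, so equal differences are equal ratios. The sorted values are identical on the 12 arrays, with a lowest value of 3.08, a median of 8.14 and a highest of 13.3. The members had means over the 12 males from 5.09 to 11.4, with a median of 7.50 against 8.13 over all genes. The MxM arrays differed most among themselves, with a mean variance of 0.0571 over members against 0.0149 in DxD, 0.0172 in DxM and 0.0275 in MxD. In MxM replicate 3, 131 genes of 7000 were more than 1 log2 unit below all other males, but only 1 of them was a member. Several results are also given without this array. The other cell types, the order of genotype means and the place of the hybrids between the species are given only with it.

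Mitotic genes of chromosomes 1 to 3 were mostly at higher levels in the sterile MxD males than in the fertile males. Against the mean of the 3 fertile genotypes, 75 of 215 members (34.9%) were higher in MxD at an adjusted p under 5% and 1 was lower (limma, Benjamini-Hochberg adjustment over all 7000 genes). Over all genes 11.0% were called higher and 12.8% lower. The median difference over the members was 0.21 log2 units, with an interquartile range from 0.09 to 0.32, while it was 0.00 over all genes. Means were higher in MxD for 184 of 215 members, compared with 50.2% of all genes. In bulk tissue, fewer cells of a type and less RNA per cell cannot be told apart, and neither can more cells and more RNA per cell. The study also describes diminished germ cells and a large loss of postmeiotic cells in MxD testes. It reasons that mitotic transcripts would then take a larger part of a fixed amount of RNA, which needs no rise in mitotic cells. These readings were not tested here.

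The differences were small for most members. Among the 75 called higher, the difference ran from 0.18 to 1.04 with a median of 0.35, a 1.28-fold change. Only 16 of the 215 members exceeded 0.5 log2 units in the positive direction, and 1 did so in the negative direction. A further 109 members had a higher mean in MxD without passing the test, with a median difference of 0.15 and a median standard error of 0.10. Another 30 had a lower mean without passing, none by more than 0.21 units.

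Each MxD male showed the shift. As a measure per male, the median over members of the log2 value minus the gene's median over the 12 males was 0.12, 0.10 and 0.24 in the 3 MxD males. It was -0.02, 0.02 and -0.01 in DxM, -0.07, -0.04 and 0.07 in MxM, and -0.13, -0.06 and -0.06 in DxD. The MxD males thus lay above all 9 fertile males, and DxD males lay below all DxM males, while MxM males overlapped both of these genotypes. The genotype means of this measure were 0.15 ± 0.08 in MxD, 0.00 ± 0.02 in DxM, -0.01 ± 0.07 in MxM and -0.08 ± 0.04 in DxD (SD, n = 3). MxM and DxM differed by less than the spread among MxM males. The number of members above their own median over the males was 162, 161 and 183 in MxD, against 44, 65 and 63 in DxD, 77, 91 and 138 in MxM and 83, 123 and 99 in DxM. Without MxM replicate 3, the male nearest to MxD, the MxM mean of the measure was -0.04 and the MxD mean 0.15. Over all genes the same measure was 0.06 in MxM replicate 3 and -0.012 to 0.005 in the other males. In that male 4261 of all genes were above their median, against 3219 to 3659 in the other males. Its value of 0.07 was thus not particular to the members. The overlap of MxM with DxM in the measure rested on this male.

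**Figure D1:**
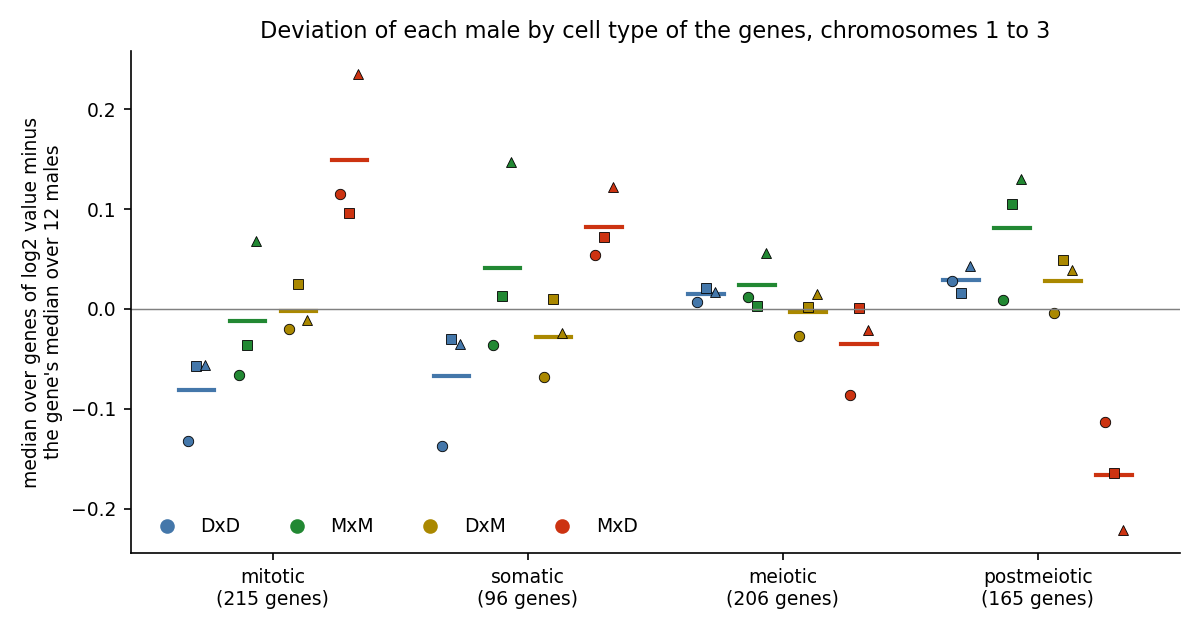
Deviation of each male, by cell type of the genes on chromosomes 1 to 3. The vertical axis is the median over genes of the log2 value minus the gene's median over 12 males; circles, squares and triangles are replicates 1, 2 and 3, and short bars are means of 3 males. For the mitotic genes the MxD males lie at 0.10 to 0.24, above all 9 fertile males.

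Summed on the linear scale, the members reached 75494 to 81121 intensity units in MxD males. The sum was 64657 to 67207 units in DxM, 58390 to 65022 in MxM and 59290 to 63269 in DxD. MxD sums therefore did not overlap those of any fertile genotype, and the DxM sums overlapped only those of MxM.

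Genotype means were highest in MxD for 134 members (62.3%, against 27.2% of all genes). They were lowest in DxD for 113 members (52.6%, against 31.1% of all genes) and in MxM for 71 (33.0%, against 29.0%, so near the share of all genes). In 41 members (19.1%) all 3 MxD males lay above all 9 fertile males, and in 0 members did they lie below, where 5.47% and 5.57% of all genes do so. Those 41 were all among the 75 called by limma, with 14 on chromosome 1, 15 on chromosome 2 and 12 on chromosome 3. The gap between the lowest MxD male and the highest fertile male had a median of 0.08 log2 units and reached 0.44.

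**Figure D2:**
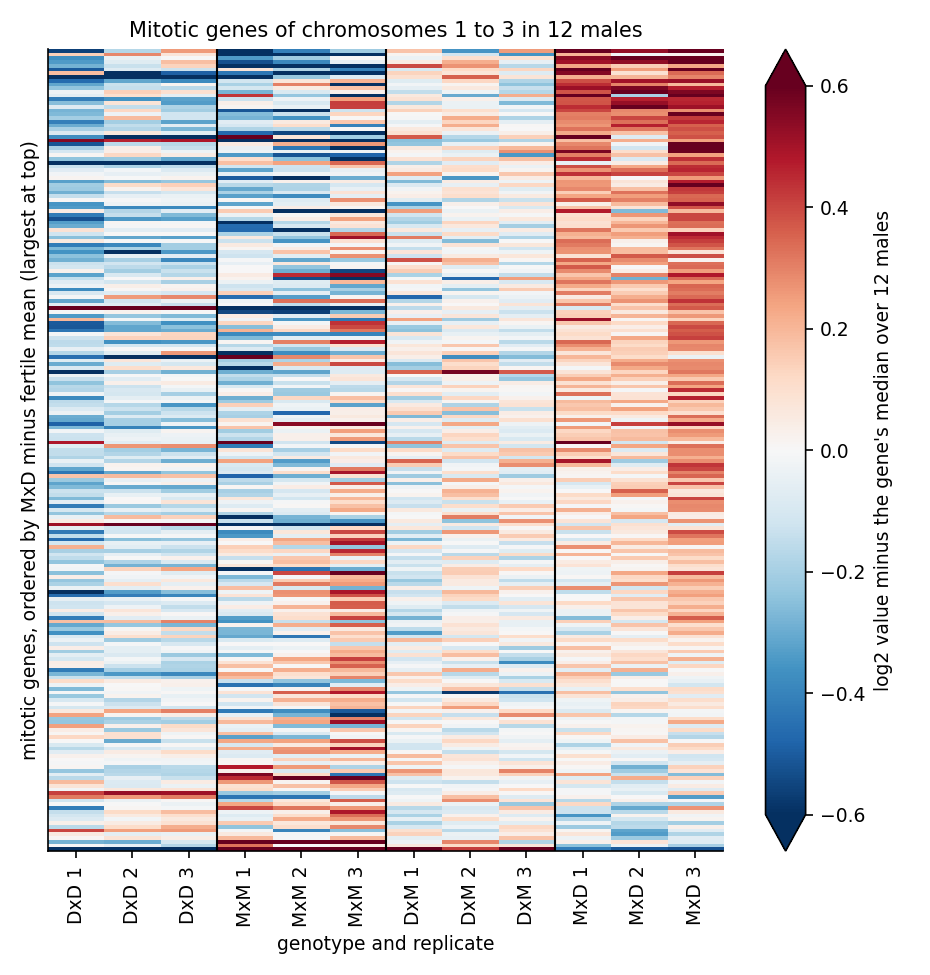
Levels of the 215 members in the 12 males. Each row is a member, ordered by the difference between MxD and the fertile mean, each column is a male, and the colour is the log2 value minus the gene's median over the 12 males, with colours saturated beyond 0.6 in either direction. The MxD columns are red in most rows, the DxD columns are mostly blue, and MxM replicate 3 is red in many rows where the other MxM males are not.

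The shift was present on each of the 3 chromosomes. On chromosome 1, 23 of 62 members were called higher in MxD and 1 lower, with a median difference of 0.22. On chromosome 2, 30 of 90 were higher and 0 lower, with a median of 0.19. On chromosome 3, 22 of 63 were higher and 0 lower, with a median of 0.22. Mitotic genes of chromosomes 4 and 5 gave 21 of 68 and 26 of 80 called higher, 0 lower on either, and medians of 0.21 and 0.22. No difference between chromosomes was tested.

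Members with higher levels had larger differences, though the trend itself was not tested. When the members were split at means of 7.04 and 8.14 log2 units, 11 of the 72 lowest were called higher, 23 of the 71 in the middle and 41 of the 72 highest. The median difference was 0.11, 0.21 and 0.33 in these groups, while the median standard error was 0.09, 0.08 and 0.08. Of all genes within the same bounds, 8.86%, 12.2% and 11.4% were called higher, and their median differences were 0.00, 0.01 and 0.00. In the highest group all 3 MxD males lay above all 9 fertile males in 25 of 72 members (34.7%), against 3 of 72 (4.17%) in the lowest. Of all genes at any level 5.47% did so, so the lowest group showed no excess. The share of all genes within each group's bounds was not computed.

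**Figure D3:**
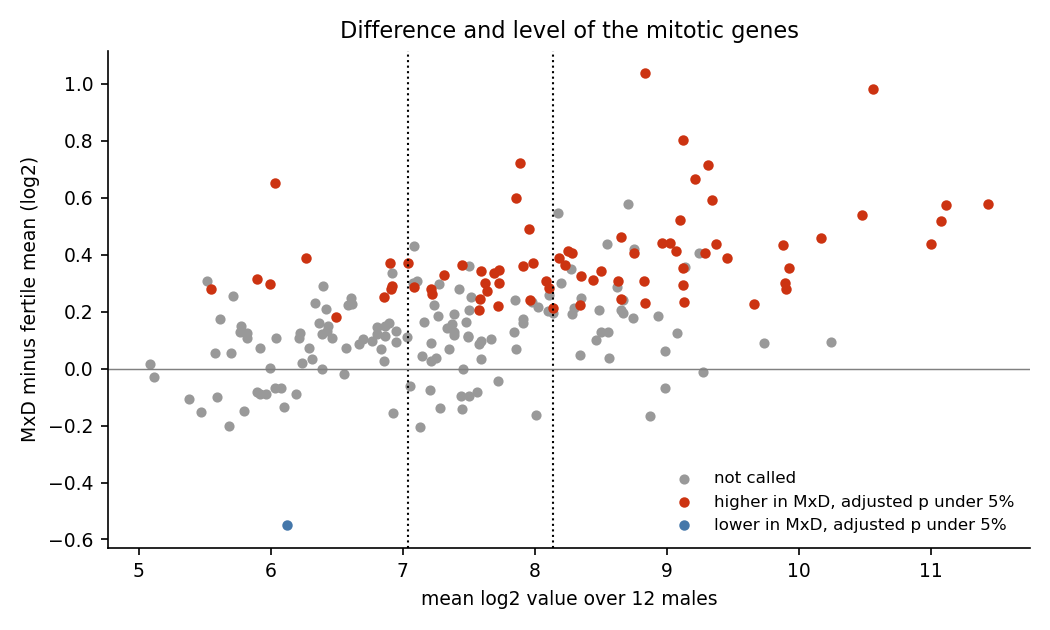
Difference of MxD from the fertile mean against level for the 215 members. The horizontal axis is the mean log2 value over 12 males, the vertical axis the difference in log2 units, red points are the 75 members called higher, the blue point is the 1 called lower, and dotted lines mark the bounds at 7.04 and 8.14. Called members are more frequent to the right of the upper bound, where 41 of 72 are red.

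Genes of the other cell types on chromosomes 1 to 3 were measured on the same arrays. The study's somatic class stands for Sertoli cells, so Leydig and peritubular cells have no class of their own. Somatic genes moved in part as the members did, with 25 of 96 called higher in MxD, 8 lower and a median difference of 0.15. The summed level of the somatic genes was 19470 to 20970 units in MxD, 17241 to 18399 in DxM, 16799 to 19079 in MxM and 15880 to 17222 in DxD. The per-male measure for somatic genes was 0.05, 0.07 and 0.12 in MxD. MxM replicate 3 reached 0.15, where the measure over all genes was 0.06. Meiotic genes had 6 of 206 higher and 26 lower, with a median of -0.04. Postmeiotic genes moved the other way, with 1 of 165 higher, 80 lower and a median of -0.24. Each MxD male was at -0.11 or below in the postmeiotic genes, and each fertile male was at -0.00399 or above. The arrays are scaled to a common distribution, so these values are relative within an array, and the part of the other cell types in the members' shift was not tested. Defining markers of single cell types could not be looked up without symbols.

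The array of MxD replicate 3 carried more of the result than the others. Without it 36 members (16.7%, against 5.03% of all genes) were called higher against the fertile mean, with a median difference of 0.17, and without MxD replicate 1 the count of members called lower went from 1 to 3. Without MxM replicate 3 the count of members called higher was 97 (45.1%, against 15.2% of all genes). With the replicate number as a block, 108 members were higher, among them all 75, and 5 were lower, while the shares of all genes were 18.7% higher and 20.6% lower. Leaving out the 3 genes of the study's short list removed genes known to be lower in MxD. With these 3 put back, the count of lower genes was 4 of 218.

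The 3 left-out genes were chosen by the study on these arrays, so their direction is a description and not independent evidence. Ppp1r15b on chromosome 1, a subunit that directs protein phosphatase 1 to the translation factor eIF2alpha, was 7.19, 7.16 and 7.05 in the MxD males and 7.21 to 7.64 in the fertile males. Baz2b on chromosome 2, a bromodomain protein, was 6.34, 6.41 and 6.46 in MxD and 6.44 to 6.70 in the fertile males. Sirpa on chromosome 2, a membrane receptor for CD47, was 5.63, 5.59 and 5.39 in MxD and 5.73 to 6.04 in the fertile males. MxD males overlapped the fertile males only for Baz2b, and the differences from the fertile mean were -0.27, -0.20 and -0.35 log2 units.

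The member with the largest positive difference from the fertile mean was ENSMUSG00000026043 on chromosome 1. Its level was 9.94, 9.31 and 9.59 in the MxD males. It was 8.23, 8.61 and 9.04 in DxD, 7.92, 8.38 and 8.57 in MxM, and 8.96, 8.43 and 9.04 in DxM. All 3 MxD males were above all 9 fertile males, although the fertile males spanned more than 1 log2 unit. MxD exceeded the fertile mean by 1.04 ± 0.20 (SE), a 2.05-fold difference with a limma adjusted p of 0.0043. The difference from DxM alone was 0.80 ± 0.25 and missed the threshold (limma adjusted p = 0.080).

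The next largest difference belonged to ENSMUSG00000058135 on chromosome 3, and it did not set MxD apart from the other hybrid. Its level was 11.43, 11.21 and 11.25 in MxD, 11.37, 11.52 and 11.30 in DxD, and 11.24, 11.11 and 10.87 in DxM. In MxM it was 7.37, 8.94 and 9.12, far below all 9 other males. The difference from the fertile mean, 0.98 ± 0.28 (limma adjusted p = 0.028), therefore rested on MxM. It did not pass the test when any 1 of the MxD males was left out (limma adjusted p from 0.067 to 0.093). MxD differed by 0.22 ± 0.35 from DxM and by -0.10 ± 0.35 from DxD, and neither passed the test.

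The only member called lower in MxD was ENSMUSG00000026414 on chromosome 1, and it was not lowest there. Its level was 5.78, 5.69 and 5.67 in MxD, 6.86, 6.61 and 6.82 in DxM, 7.10, 7.09 and 7.55 in MxM, and 4.82, 4.86 and 4.65 in DxD. No male of 1 genotype overlapped another genotype, with DxD lowest, then MxD, DxM and MxM. MxD was below the fertile mean by -0.55 ± 0.10 (limma adjusted p = 0.0031) and above DxD by 0.94 ± 0.12 (limma adjusted p = 0.00028). Between the reciprocal hybrids, MxD was lower than DxM by -1.05 ± 0.12, a 2.07-fold difference (limma adjusted p = 0.00081).

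**Figure D4:**
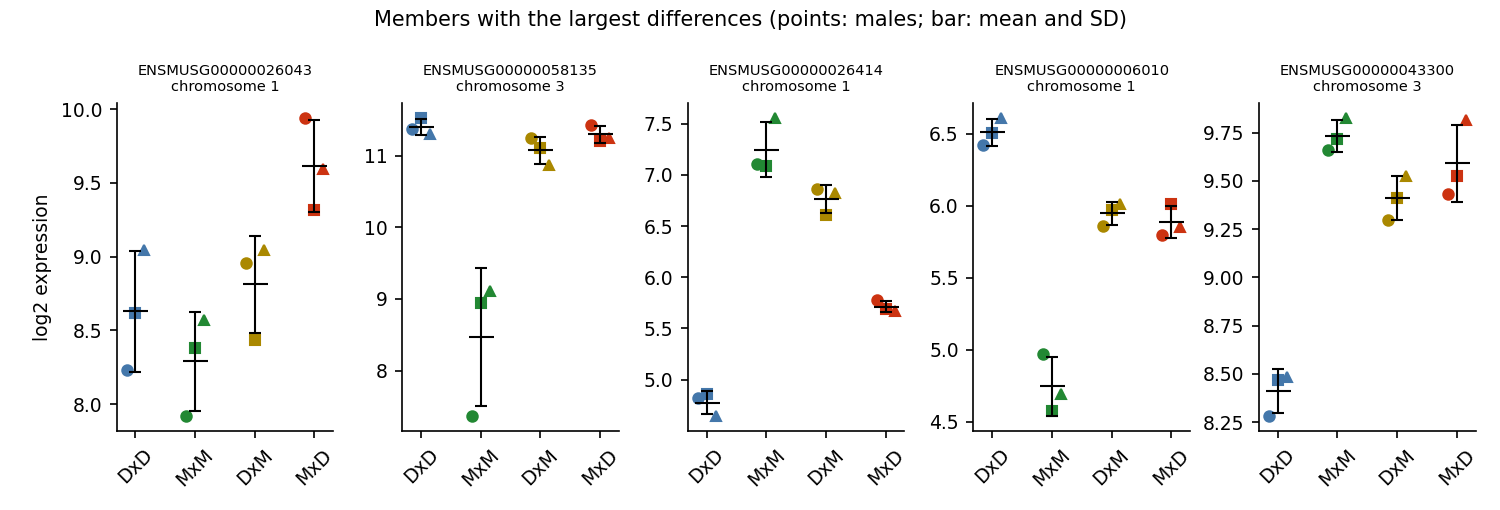
Log2 expression of 5 members in the 12 males. Each panel is a member with its own vertical axis, points are males (circles, squares and triangles are replicates 1, 2 and 3), and black bars give the mean and SD of 3 males. All MxD males are above all fertile males only in the first panel; in the second they overlap DxD and DxM, and in the third they lie between DxD and DxM.

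The reciprocal hybrids give the closest comparison, since they carry the same copies of chromosomes 1 to 3. Members were again mostly higher in the sterile males, with 181 of 215 having a higher mean in MxD than in DxM, against 49.9% of all genes. The median difference was 0.16 log2 units, with an interquartile range from 0.05 to 0.26, and it was 0.00 over all genes. Few single members passed the test. Called higher were 16 members, against 3.0% of all genes, and called lower was 1, ENSMUSG00000026414, against 3.5%. The 16 differed by 0.28 to 0.66 log2 units with a median of 0.43, and 13 of them were among the 72 members with the highest means.

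In 69 members (32.1%) all 3 MxD males lay above all 3 DxM males, and in 3 they lay below, where 13.5% and 12.9% of all genes do so. At an unadjusted limma p under 0.05, 64 members differed (29.8%, against 21.8% of all genes). The 165 members higher in MxD without passing had a median difference of 0.18 and a median standard error of 0.11. Somatic genes had a median difference of 0.13 between the hybrids, with 7 of 96 called higher, and postmeiotic genes one of -0.20, with 28 of 165 called lower. The count of 16, a share of 7.44%, depended on single arrays. It was 3 without MxD replicate 3 (1.40%, against 1.36% of all genes) and 4 without DxM replicate 3 (1.86%, against 1.44%), so that the members' share was then near that of all genes. It was 6 without DxM replicate 1 (2.79%, against 1.66%) and 10 without DxM replicate 2 (4.65%, against 1.99%). Without MxM replicate 3, which enters only through the shared spread, it was 26 (12.1%, against 4.64%). With the replicate number as a block it was 42, including all 16, with 2 lower (19.5% higher, against 8.33% of all genes).

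Both within-species genotypes had lower levels of the members than MxD. These contrasts share the MxD males with each other and with the contrasts above, so they are given side by side only. Against DxD, 83 members were higher in MxD and 7 lower, with 15.9% and 15.1% of all genes called. The median difference was 0.24, and 180 of 215 means were higher, against 48.9% of all genes. Against MxM, 66 were higher and 7 lower, with 13.0% and 17.3% of all genes called. The median difference was 0.18, and 156 of 215 means were higher, also against 48.9% of all genes. The 83 members called against DxD differed by up to 1.18 log2 units and the 66 called against MxM by up to 2.82.

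Single arrays changed these counts less than those between the hybrids. Against DxD, 55 members were higher without DxD replicate 1 (25.6%, against 11.3% of all genes) and 50 without MxD replicate 3 (23.3%, against 11.0%), and the count of lower members was 4 without any 1 of the DxD males or without MxD replicate 2 or 3. Without MxM replicate 3, which enters there only through the shared spread, 106 members were higher (49.3%, against 19% of all genes). Against MxM, 76 members were higher without MxM replicate 3 (35.3%, against 15.3% of all genes), with a median difference of 0.23, and 4 were lower without MxD replicate 2. With the replicate number as a block, 18 members were lower than in MxM, including the 7 (8.37%, against 24.0% of all genes).

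Between the species, members were more often called lower than higher in DxD against MxM, at shares near those of all genes. Of the 215 members, 44 were called lower in DxD (20.5%, against 17.8% of all genes) and 25 higher (11.6%, against 14.0%). The members' lower share stayed above that of all genes in 12 of 12 limma fits with 1 male left out. It was below in the adjusted gene by gene tests, with equal variances (9.3%, against 10.8%) and with unequal variances (3.72%, against 3.9%). The median difference was -0.10 log2 units, against -0.02 over all genes, and 73 members had a higher mean in DxD, a share of 34.0% against 46.8% of all genes. The 44 lower members had a median difference of -0.45 and the 25 higher ones a median of 0.51. All 3 DxD males were below all 3 MxM males in 67 members (31.2%) and above them in 29, where 25.1% and 19.8% of all genes do so. Somatic genes had a median difference of -0.11, close to that of the members. Without MxM replicate 3 there were 37 lower members and 27 higher (17.2% and 12.6%, against 14.9% and 14.2% of all genes), and the median difference was -0.05.

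Species differences reached larger sizes than any difference between the hybrids. ENSMUSG00000058135, given above, was higher in DxD than in MxM by 2.92 ± 0.35, a 7.56-fold difference (limma adjusted p = 7.9e-05). ENSMUSG00000006010 on chromosome 1 had levels of 6.42, 6.51 and 6.61 in DxD and 4.97, 4.58 and 4.69 in MxM. The 2 genotypes did not overlap, and the difference was 1.76 ± 0.10 (limma adjusted p = 5.2e-07). Its hybrids lay between, at 5.86, 5.97 and 6.01 in DxM and 5.80, 6.01 and 5.85 in MxD, and did not differ beyond their spread. The probes follow mainly *M. domesticus* sequence, and the study states that mismatches should make *M. domesticus* signal appear higher. It held that such effects were not a major factor over its genes. For a single gene, a difference in expression and one in probe binding cannot be told apart here.

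ENSMUSG00000026414 was lower in DxD than in MxM by -2.47 ± 0.12 (limma adjusted p = 1.5e-07). ENSMUSG00000043300 on chromosome 3 was next, with levels of 8.28, 8.47 and 8.48 in DxD and 9.66, 9.72 and 9.83 in MxM, a difference of -1.32 ± 0.11 (limma adjusted p = 4.3e-06). Both hybrids were near MxM for this gene, at 9.30, 9.41 and 9.53 in DxM and 9.43, 9.52 and 9.82 in MxD. Its difference from the fertile mean in MxD, 0.41 ± 0.09 (limma adjusted p = 0.0070), therefore rested on DxD.

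The 69 members that differed between the species show where the hybrids stood. DxM was between DxD and MxM in 61 of them (88.4%), above both in 7 (10.1%) and below both in 1. MxD was between in 43 (62.3%), above both in 26 (37.7%) and below both in 0. Of the 2230 genes of all types that differed between the species, DxM was between in 83.2%, above both in 6.23% and below both in 10.6%. MxD was between in 66.55% of these genes, above both in 14.1% and below both in 19.4%. The shares between the species were thus near those of all genes. Both sets were called for a species difference on these same arrays, which favours a place between. From the midpoint of DxD and MxM, the members' median distance was 0.08 log2 units in DxM and 0.24 in MxD. Across the 215 members, the difference between MxD and DxM and the difference between DxD and MxM, which share no males, had a Pearson correlation of 0.137 and a Spearman correlation of -0.00154.

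Fewer members were called between the fertile hybrid DxM and the within-species males than between MxD and these males. Against DxD, 18 members were higher in DxM and 4 lower, with 5.84% and 6.21% of all genes called and a median difference of 0.09. Means were higher in DxM for 154 members (71.6%, against 50.6% of all genes). The 18 differed by 0.25 to 1.99 log2 units and the 4 by -0.74 to -0.49. Without any 1 of the 6 males compared, 5 to 9 members were called higher (2.33% to 4.19%), where 3.24% to 4.24% of all genes were, so that the members' share was below that of all genes each time. Without MxM replicate 3, which is not among these males, 24 were higher (11.2%, against 7.59% of all genes) and 6 lower (2.79%, against 8.27%). Blocking on the replicate number gave 35 higher and 7 lower (16.3% and 3.26%, against 10.9% and 11.7% of all genes). Against MxM, 22 members were higher and 11 lower, with 6.51% and 10.4% of all genes called and a median difference of 0.02. Means were higher in DxM for 114 members (53.0%, against 46.7% of all genes). This split changed with the scaling, from 66.7% of calls higher to 54.3% (19 higher and 16 lower) when arrays were centred on the median of their meiotic genes.

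In the contrast of DxM with MxM, single arrays decided the smaller counts. The lower members were 23 without MxM replicate 1 (10.7%, against 12.3% of all genes), 7 without MxM replicate 3 or DxM replicate 1, and 6 without DxM replicate 2 or 3. The higher members, 10.2% in all, were 12 without MxM replicate 2 (5.58%, against 4.36% of all genes), 10 without DxM replicate 1 (4.65%, against 3.97%) and 14 without DxM replicate 3 (6.51%, against 4.30%). The median difference became -0.04 when MxM replicate 1 was left out and 0.06 when MxM replicate 3 was, so its sign turned with 1 array. It was also below 0, at -0.012, without DxM replicate 2 and without all replicate 1 arrays.

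**Figure D5:**
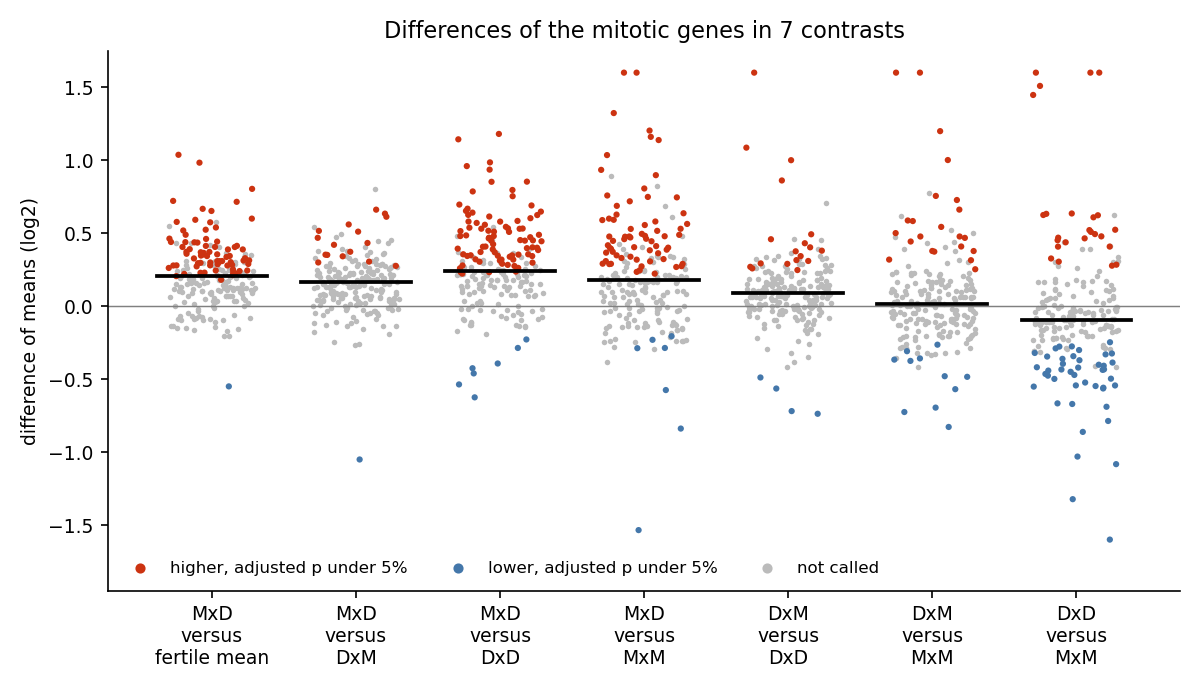
Differences of the 215 members in 7 contrasts. Each point is a member, the vertical axis is the difference of genotype means in log2 units (first-named genotype minus the second), red and blue points have a limma adjusted p under 5%, black lines are medians, and points beyond 1.6 are drawn at 1.6 (2 in MxD versus MxM, 1 in DxM versus DxD, 2 in DxM versus MxM and 4 in DxD versus MxM). The medians lie at 0.16 to 0.24 in the 4 contrasts that involve MxD, and at -0.10 to 0.09 in the 3 among fertile genotypes.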

How the data were processed

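RNA from the whole testis of 12 males was hybridised to 1 array each. Per the methods, the authors grouped probes into Ensembl genes with BRAINARRAY chip description files, combined them with PLIER, kept genes detected in every male and quantile normalized the values. The deposited log2 values were used unchanged. Probes follow the sequence of laboratory mice, which descend mainly from *M. domesticus*. The number of arrays limits the precision. Chromosomes and cell types came from the study's table of all genes, of which the 1997 rows used here include every gene it lists on chromosomes 1 to 3. The members and lists were chosen with earlier results of these data known.

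Tests across all genes used limma 3.58.1 (R 4.3.3), two-sided, with 1 coefficient per genotype, a spread shared over 4 genotypes and Benjamini-Hochberg adjustment at 5% over 7000 genes. Gene by gene t-tests, other thresholds, array weights, a robust prior with a trend, a filter on the dimmest 25% of genes, 2 centrings, pairs of genotypes fitted alone, the replicate block and each male left out were alternatives. A further 2 (replicate 1 arrays left out, and replicate 1 against the others as a block) were chosen after seeing the data. The study used Student's t-tests at an unadjusted p under 0.05, and no counts in that form are given here. The t-tests here had unequal or equal variances and were adjusted unless stated. For the fertile mean they took the fertile males as 1 group, so differences between fertile genotypes enter their spread, unlike in limma. The test was tried on simulated data with known changes. Same-numbered males deviated together, with correlations across genes of 0.15 to 0.76 between MxD and each fertile genotype and 0.16 to 0.75 between DxM and DxD. The numbers were therefore read as a possible pairing there. The lowest correlation was 0.07 between DxD and MxM and -0.05 between DxM and MxM, so the numbers were not read as pairing in these. The split is not sharp. The 3 correlations were 0.64, 0.15 and 0.23 between MxD and MxM, and 0.57, 0.07 and 0.31 between DxD and MxM. Correlations of unlike-numbered males were not computed, so whether the numbers pair the males was not settled. The main fit used no pairing in any contrast, so the main counts ignore it. The pairing entered only through the blocks, which were alternatives. What the numbers mark is not given in the sources used here, and the pairing was read from these correlations.

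Members named are, of those past the threshold, the ones that differ most in each direction, at most 2 each, for MxD versus the fertile mean and for DxD versus MxM, with the 3 left-out genes as context. A longer list had been planned, as had cell type markers, functional lists and promoter motifs, which need symbols and sequences and were not used here. Python 3.11.15 and matplotlib 3.10.9 made the figures.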

Additional observations from a re-analysis of the deposited data

How the results depend on the processing

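The median differences over members kept their sign in each alternative, except that of DxM versus MxM, which is near 0 and was -0.044 without MxM replicate 1, -0.012 without DxM replicate 2, -0.012 without all replicate 1 arrays and -0.003 with arrays centred on the meiotic median. No named gene reversed, but calls were lost. In MxD versus the fertile mean, ENSMUSG00000058135 missed 5% without any 1 MxD male (limma adjusted p 0.086, 0.067 and 0.093). It also missed it in the t-test with unequal (adjusted p 0.27) and equal variances (0.55). ENSMUSG00000026414 missed it in both t-tests (0.41 and 0.69) and ENSMUSG00000026043 in the t-test with unequal variances (0.077). ENSMUSG00000058135 also missed it with unequal variances in DxD versus MxM (0.13). Of the left-out genes, Baz2b lost its call in 11 settings at 5%, Ppp1r15b in 3 and Sirpa in 2. The median of all genes moved by less than 0.1 log2 units under either centring. Counts of members called, given as higher/lower, moved most with the test. With unequal variances and adjustment, the t-test gave 28 higher and 0 lower for MxD versus the fertile mean, 0 and 0 versus DxM, 21 and 2 versus DxD, 1 and 0 versus MxM, 5 and 8 for DxD versus MxM, 4 and 2 for DxM versus DxD and 0 and 0 versus MxM. All genes gave 3.86% and 3.93%, 0% and 0%, 5.06% and 4.29%, 0.0143% and 0.0286%, 2.79% and 3.9%, 1.21% and 1.21%, and 0.0286% and 0.0286%, in the same order. The members' shares in DxD versus MxM were 2.33% and 3.72%. At an unadjusted p under 0.05 the t-test with unequal variances gave 74 and 2, 38 and 1, 93 and 5, 46 and 6, 19 and 36, 42 and 7, and 17 and 12, in the same order. All genes gave 12% and 12.3%, 7.67% and 7.33%, 17.5% and 17.1%, 9.66% and 14.4%, 12.8% and 16.7%, 12.1% and 12.7%, and 6.83% and 11.5%. The members' shares in DxD versus MxM, 8.84% and 16.7%, were not above these. In DxM versus MxM the higher share, 7.91%, was near that of all genes. With equal variances and adjustment, the counts were 29 and 0, 0 and 0, 57 and 3, 10 and 2, 15 and 20, 12 and 5, and 5 and 0. All genes then gave 3.8% and 3.71%, 0.0571% and 0.0714%, 11.2% and 11.4%, 2.17% and 3.83%, 8.89% and 10.8%, 5.31% and 5.79%, and 0.971% and 1.59%. The members' shares, 6.98% and 9.3% in DxD versus MxM and 5.58% higher in DxM versus DxD, were near or below these. Array weights gave 29 higher in MxD versus DxM (13.5%, against 4.79% of all genes) and 46 higher in DxD versus MxM (21.4%, against 23.6%). They gave 43 and 14 in DxM versus DxD (20% and 6.51%, against 14% and 15.4%) and 40 and 24 versus MxM (18.6% and 11.2%, against 11.5% and 14.9%). Fits of the compared genotypes alone gave 33 and 3 in MxD versus MxM, where all genes gave 5.94% and 9.03%. They gave 32 and 7 in DxM versus DxD (all genes 8.46% and 9.39%) and 11 and 3 versus MxM (2.96% and 4.66%). The fertile mean uses all males. At 1% the counts were 37 higher versus the fertile mean, 3 higher versus DxM, 44 and 3 versus DxD, 35 and 3 versus MxM, 15 and 29 for DxD versus MxM, 4 higher for DxM versus DxD, and 10 and 3 versus MxM. At 1% the members' shares versus DxM (1.40% higher) and in DxM versus DxD (1.86%) were near or below those of all genes (1.21% and 2.93%), while versus the fertile mean they were 17.2% against 5.19%. For MxD the higher shares were 20.5% versus DxD and 16.3% versus MxM, against 8.87% and 6.49% of all genes. In DxD versus MxM the shares were 6.98% higher and 13.5% lower, against 8.91% and 11.1%. In DxM versus MxM they were 4.65% higher and 1.4% lower, against 3.09% and 4.81%. At 10%, 3 were lower versus the fertile mean (1.4%, against 17.2% of all genes) and 33 higher versus DxM (15.3%, against 5.33%). At that threshold 13 were lower versus MxM (6.05%, against 21.4%) and 20 lower in DxM versus MxM (9.3%, against 14.1%). Without the dimmest 25% of genes, which leaves 143 of the 215 members, the lower counts were 0, 0, 3 and 2 in the 4 MxD contrasts. Of all genes, 12.6%, 3.7%, 14.6% and 16.5% were lower there. The lower counts were 25 in DxD versus MxM (17.5%, against 17.1% of all genes), 1 in DxM versus DxD (0.699%, against 5.68%) and 2 versus MxM (1.4%, against 9.18%). The median of MxD versus MxM was then 0.25. With the 3 genes of the study's short list put back, lower counts were 4 versus the fertile mean (1.83%, against 12.8% of all genes) and 3 versus DxM (1.38%, against 3.5%). Then 2 genes lay below all 9 fertile males, where 5.57% of all genes do so.

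The replicate block, which uses the pairing by number, gave 108 and 5 versus the fertile mean, 42 and 2 versus DxM, 117 and 8 versus DxD, 92 and 18 versus MxM, and 35 and 7 in DxM versus DxD. All genes then gave 18.7% and 20.6%, 8.33% and 8.83%, 23.5% and 22.5%, 19.9% and 24%, and 10.9% and 11.7%. The share of all genes called also grew, from 3.00% to 8.33% higher versus DxM and from 5.84% to 10.9% higher in DxM versus DxD. In DxM versus MxM, where the numbers were not read as pairing, the replicate block gave 23 lower (10.7%, against 16.4% of all genes). In DxD versus MxM it gave 33 and 58 (15.3% and 27%, against 19.8% and 24.6%). Replicate 1 against the others as a block gave 5 lower versus the fertile mean (2.33%, against 19.9%), 42 higher versus DxM (19.5%, against 7.87%) and 14 lower versus MxM (6.51%, against 23.6%). It gave 32 and 7 in DxM versus DxD (14.9% and 3.26%, against 10.5% and 11.4%) and 26 lower versus MxM (12.1%, against 16.4%). Without all replicate 1 arrays, the counts were 42 and 3 versus the fertile mean (19.5% and 1.4%, against 7.91% and 10.6% of all genes) and 5 higher versus DxM (2.33%, against 1.84%). They were 55 and 4 versus DxD (25.6% and 1.86%, against 13.1% and 12.5%), 7 higher in DxM versus DxD (3.26%, against 3.63%) and 11 higher versus MxM (5.12%, against 4.29%). No call of the main fit was lost under the replicate block in any of the 7 contrasts.

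Leaving out 1 male at a time gave 36 to 97 higher and 1 to 3 lower for MxD versus the fertile mean, 3 to 26 higher versus DxM, 50 to 106 and 4 to 7 versus DxD, 44 to 76 and 4 to 10 versus MxM, 18 to 27 and 32 to 52 in DxD versus MxM, 5 to 24 and 4 to 6 in DxM versus DxD, and 10 to 24 and 6 to 23 versus MxM, with medians there from -0.044 to 0.064. Members above all 9 fertile males were 41 to 61, and below 0 to 3. With any 1 male left out, the members' share called higher was above that of all genes in 12 of 12 fits of each MxD contrast, but in 6 of 12 for DxM versus DxD. It was above in 12 of 12 for DxM versus MxM and in 0 of 12 for DxD versus MxM. The share called lower was above that of all genes in 12 of 12 fits of DxD versus MxM and in 0 of 12 of each other contrast. With 3 males a genotype, differences near the median of 0.21 often missed the threshold.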
